A study of Mus musculus with 8 samples.

Results

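The axon guidance ligands and receptors described here are 54 genes of the semaphorin, plexin, neuropilin, ephrin, Eph, Slit, Robo and netrin pathways, listed by symbol and matched to 54 of the 53379 genes in a table of read counts. Bulk RNA sequencing of polyadenylated RNA was performed on the cingulate cortex of untreated male mice. The WT group holds 4 *Mvp*+/+ samples, and the Mvp KO group holds 4 *Mvp*-/- samples. In the KO line, derived from 1 embryonic stem cell clone on a C57BL/6 background, a gene trap of β-galactosidase and neomycin phosphotransferase with its own polyadenylation site sits in the first intron of *Mvp*. The age of these mice is not given in the sources used here, and the labels do not state that each sample is a separate mouse, so p-values measure the spread between samples.

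Axon guidance cues are secreted or membrane-bound proteins that attract or repel growing axons through receptors on the growth cone. Semaphorins signal through plexins, with neuropilins as co-receptors for most of the secreted ones. Ephrins bind Eph receptor tyrosine kinases, Slits bind Robo receptors, and netrins bind DCC and the UNC5 receptors. Many of these genes stay active in the adult cortex, where they take part in synapse and spine maintenance. The comparison of genotypes asks whether the loss of *Mvp*, the main protein of the vault particle, goes along with other transcript levels in a region in which the study examined brain anatomy.

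None of the 54 genes differed between the genotypes past the threshold. With quasi-likelihood fits in edgeR over 16914 genes and Benjamini-Hochberg adjusted p-values, 0 of the 54 had an adjusted p under 0.05 (lowest value 0.969), beside 1 gene, *Mvp* itself, among all genes tested (0.00591%). The unadjusted p was under 0.05 for 1 member, *Ephb1*, where 1.56% of all genes were (0.698% higher and 0.863% lower in Mvp KO), and DESeq2's Wald test gave the same number of members at both thresholds. The genotypes overlapped in all 54, where 1.52% of all genes showed no overlap. The estimated fold change was above 0 in 22 members and below 0 in 32, where 50% of all genes lay above 0. Their median log2 fold change was -0.02, where the median of all genes tested lay at -2.07e-06. All 54 passed the filter on low counts, and the lowest count in any sample was 26, for *Dcc*.

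*Mvp* had 6.81, 7.12, 7.89 and 5.49 CPM in WT replicates 1 to 4 and 1.45, 1.44, 2.13 and 1.51 CPM in Mvp KO replicates 1 to 4 (log2 fold change -2.06, SE 0.186, edgeR adjusted p = 0.0162). With a sample left out, *Mvp* passed in 2 of 8 fits, leaving out either WT replicate 4 or Mvp KO replicate 3. CPM are counts for every 1000000 counts of a library, after TMM scaling of the library sizes. Totals ran from 28456504 to 42854368 counts per sample. The excitatory neuron markers, *Slc17a7* among them, summed to between 5742 and 6412 CPM in WT and between 5004 and 6355 CPM in Mvp KO, while the 5 choroid plexus markers summed to at most 5.75 CPM. In bulk tissue, fewer cells of a type and less RNA per cell cannot be told apart. One library, WT replicate 4, stood apart: 7 of the 54 members differed there by 2-fold or more from the median that the remaining 7 samples gave, as did 8.5% of all genes. The same distance was reached by 1 member in Mvp KO replicate 2 (1.9% of all genes) and by 0 members in the other samples, where the share of all genes was 0.863% in WT replicate 1, 0.857% in WT replicate 2, 0.319% in WT replicate 3, 2.28% in Mvp KO replicate 1, 0.751% in Mvp KO replicate 3 and 1.01% in Mvp KO replicate 4. The estimates of several members are therefore also given without it.

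**Figure D1:**
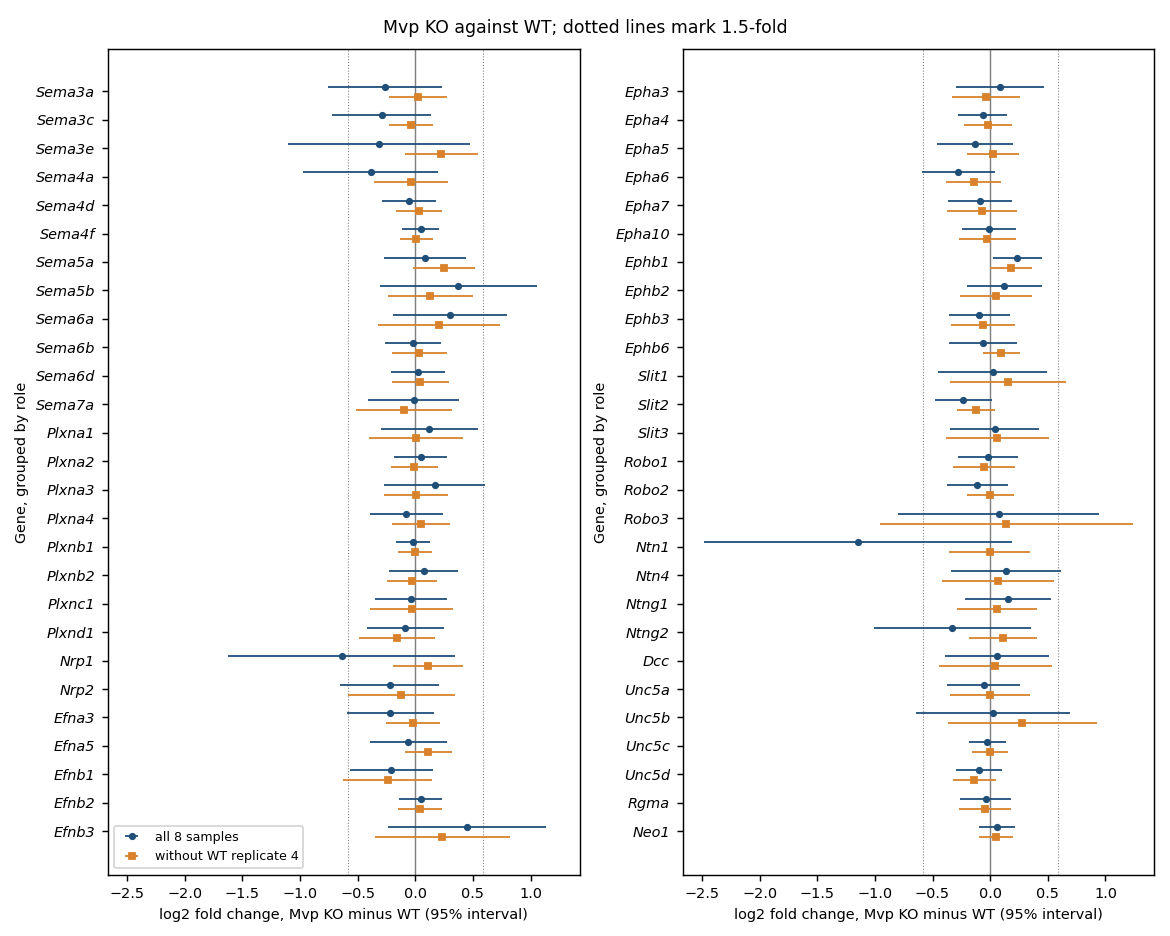
Log2 fold change between Mvp KO and WT with its 95% interval (horizontal axis) for the 54 genes (vertical axis, by role), with all 8 samples (circles) and without WT replicate 4 (squares). The interval from all samples includes 0 for every gene but *Ephb1*, and without WT replicate 4 the wide intervals of *Ntn1* and *Nrp1* narrow around 0.

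Levels per length placed members of different families at the top. The highest of the 54 was *Ephb6*, an Eph receptor without kinase activity, at 51.2 ± 10.5 CPM per kb of exon in WT and 49.1 ± 3.79 in Mvp KO (SD, n = 4 each). *Sema7a*, a GPI-anchored semaphorin that binds plexin C1, followed with 41.7 ± 10.4 CPM per kb in WT and 41.4 ± 6.11 in Mvp KO, and these neighbours in the order did not differ beyond their spread. *Epha4*, a receptor for both ephrin classes, came next with 33.2 ± 2.80 CPM per kb in WT and 31.7 ± 3.27 in Mvp KO. The lowest was *Dcc*, the netrin receptor for attraction, at 0.0820 ± 0.0121 CPM per kb in WT and 0.0853 ± 0.0123 in Mvp KO. *Unc5a*, which mediates repulsion by netrin, lay at 14.1 ± 1.13 CPM per kb in WT and 13.6 ± 2.88 in Mvp KO, so the netrin receptors held both rank 10 and rank 54 of the 54 genes. These ranks rest on the combined exon length of each gene. By median transcript length, over all samples, *Ephb6* (274 CPM per kb) stayed highest, but *Plxna1* (201) and *Plxnb1* (139) lay above *Epha4* (75.5) and *Sema7a* (73.8). By longest coding transcript *Ephb6* (50.3), *Sema7a* (41.6) and *Epha4* (41.4) kept their order.

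**Figure D2:**
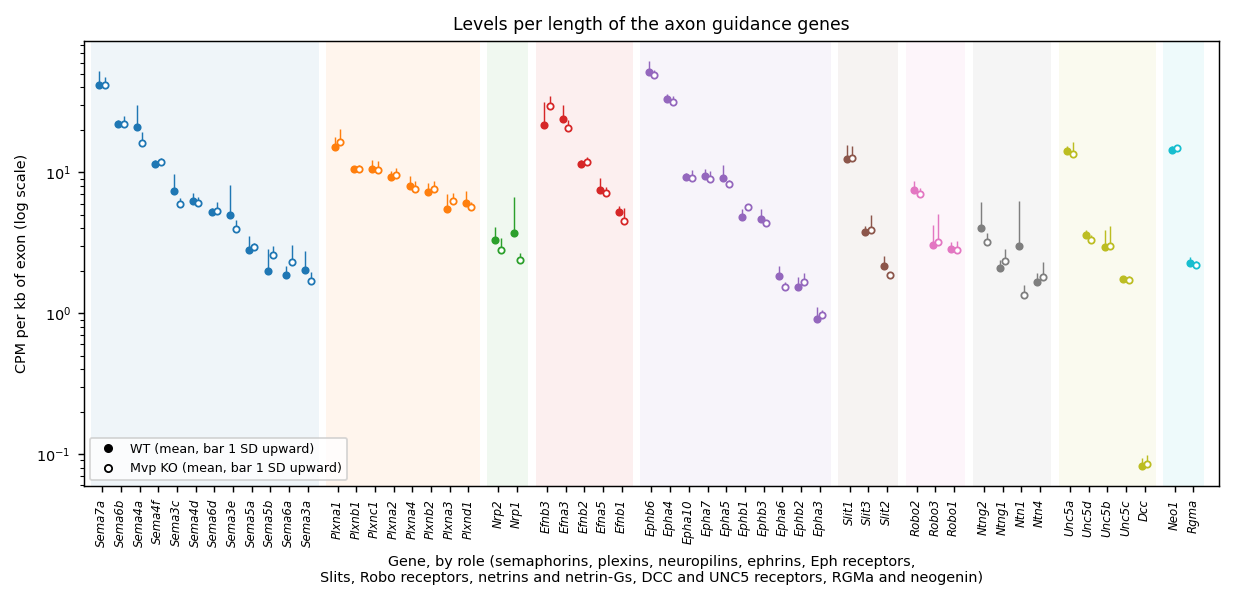
Mean CPM per kb of exon (vertical axis, log scale) of each gene in WT (filled) and Mvp KO (open), with bars of 1 SD upward, ordered by level inside each role group (horizontal axis). *Ephb6* is highest and *Dcc* lowest in both genotypes, and the gap between the points of a gene is widest for *Ntn1*.

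Of the 12 semaphorins, 5 had a higher and 7 a lower estimate in Mvp KO, 0 passed the threshold, and the log2 fold changes lay between -0.39 and 0.37. *Sema3c*, secreted and bound by neuropilins, had the smallest p of the family. Its WT values were 42.1, 41.9, 47.7 and 77.4 CPM, and its KO values were 39.97, 38.6, 46.6 and 45.4 CPM (log2 fold change -0.29, SE 0.191, unadjusted p = 0.157, edgeR adjusted p = 0.969). WT replicate 4 lay above the other 7 samples, which ran from 38.6 to 47.7 CPM, and without it the estimate for *Sema3c* was -0.04 (SE 0.0856). *Sema3e*, a secreted ligand that plexin D1 can bind without a neuropilin, had 26.9, 31.4, 36.3 and 89.0 CPM in WT and 29.5, 43.2, 39.2 and 35.4 CPM in Mvp KO. The estimate for *Sema3e* was -0.32 (SE 0.349) with all samples and 0.23 (SE 0.141) without WT replicate 4, so its sign rests on that library. *Sema4a*, a transmembrane semaphorin, had 91.8, 86.5, 90.8 and 187 CPM in WT and 84.5, 64.4, 96.6 and 103 CPM in Mvp KO. Without WT replicate 4 its log2 fold change moved from -0.39 (SE 0.260) to -0.04 (SE 0.142).

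*Sema5b*, a transmembrane semaphorin with thrombospondin repeats, had 19.1, 13.0, 18.2 and 6.19 CPM in WT and 18.5, 14.3, 19.3 and 21.3 CPM in Mvp KO, so here WT replicate 4 was the lowest. Its log2 fold change of 0.37 (SE 0.302) became 0.13 (SE 0.163) without that library. *Sema7a* ran over 107, 179, 153 and 111 CPM in WT and 114, 161, 143 and 128 CPM in Mvp KO, and both genotypes covered nearly the same range (log2 fold change -0.01, 95% interval -0.41 to 0.38). Of the remaining 7 semaphorins, *Sema6a* had the largest estimate, 0.30 (SE 0.220). *Sema3a*, a secreted repellent, had -0.26 (SE 0.219) with all samples and 0.02 (SE 0.113) without WT replicate 4. *Sema5a* moved the other way, from 0.09 (SE 0.159) to 0.25 (SE 0.120). *Sema4f* and *Sema6d* had log2 fold changes of 0.05 (SE 0.0720) and 0.02 (SE 0.105). *Sema4d*, the ligand of plexin B1, was at 48.2 ± 6.19 CPM in WT and 46.4 ± 4.47 CPM in Mvp KO (SD, n = 4 each), and *Sema6b* at 87.9 ± 6.15 and 86.9 ± 13.2 CPM.

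The 8 plexins, the signalling receptors of the semaphorins, had log2 fold changes between -0.09 and 0.17, 4 above and 4 below 0, with 0 past the threshold. The 95% interval of the change lay inside 1.5-fold in both directions for 7 of the 8, where 64.5% of all genes tested had such an interval. *Plxna1*, the highest plexin per length, had 152, 135, 156 and 102 CPM in WT and 119, 116, 171 and 186 CPM in Mvp KO. The KO samples held the highest values of *Plxna1* but covered most of the WT range (log2 fold change 0.12, SE 0.187), and the estimate was 0.0058 (SE 0.176) without WT replicate 4. Of its exonic bases, 10.7% lie opposite a gene on the other strand. *Plxna3* had the smallest p of the family, with 55.5, 44.5, 46.2 and 27.5 CPM in WT and 45.0, 41.5, 50.8 and 58.3 CPM in Mvp KO (log2 fold change 0.17, SE 0.195, unadjusted p = 0.407, edgeR adjusted p = 0.969). WT replicate 4 was the lowest sample for both genes, and without it the estimate for *Plxna3* was 0.0064. *Plxnb1* had the narrowest interval of the plexins, from -0.17 to 0.13, at 102 ± 2.42 CPM in WT and 101 ± 7.02 CPM in Mvp KO (SD, n = 4 each).

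Both neuropilins had estimates below 0, and neither passed the threshold. *Nrp1*, co-receptor of class 3 semaphorins and of VEGF, had 22.0, 17.9, 24.9 and 80.3 CPM in WT and 19.2, 23.5, 26.8 and 23.4 CPM in Mvp KO. The log2 fold change of -0.64 (SE 0.436, unadjusted p = 0.177, edgeR adjusted p = 0.969) turned to 0.11 (SE 0.134) without WT replicate 4, the single sample above 26.8 CPM. *Nrp2* had 47.4, 30.0, 32.1 and 46.8 CPM in WT and 30.9, 26.7, 33.2 and 43.1 CPM in Mvp KO (log2 fold change -0.22, SE 0.191). Its higher WT values were those of replicates 1 and 4, and KO replicate 4 reached nearly as high. Per length the pair did not differ beyond its spread, at 3.30 ± 0.788 CPM per kb for *Nrp2* and 3.71 ± 3.01 for *Nrp1* in WT.

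Among the 5 ephrins, *Efnb3*, a transmembrane ephrin-B, had the smallest p and, over all 8 samples, the highest level per kb of exon. In WT alone *Efna3* lay higher, at 23.9 ± 6.02 against 21.6 ± 10.02 CPM per kb, within the spread, and by median transcript length *Efna3* was the highest ephrin. *Efnb3* had 107, 51.6, 80.6 and 35.1 CPM in WT and 117, 74.8, 86.2 and 96.2 CPM in Mvp KO (log2 fold change 0.45, SE 0.305, unadjusted p = 0.176, edgeR adjusted p = 0.969). WT replicates 2 and 4 lay below every KO sample and WT replicate 1 above 3 of the 4. Without WT replicate 4 the estimate was 0.23 (SE 0.250), and without WT replicate 1 it was 0.75. *Efna3*, GPI-anchored like all ephrin-As, was at 58.2 ± 14.7 CPM in WT and 50.1 ± 6.999 CPM in Mvp KO (SD, n = 4 each), and 14.1% of its exonic bases lie opposite another gene. Without WT replicate 4 the WT level of *Efna3* was 51.6 ± 2.59 CPM. *Efnb2* was the steadiest ephrin, at 77.9 ± 5.79 CPM in WT and 80.5 ± 7.14 CPM in Mvp KO, with a 95% interval of the log2 fold change from -0.14 to 0.23.

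The 10 Eph receptors included the member with the smallest p of the 54. *Ephb1*, a kinase receptor of ephrin-Bs, had 31.8, 34.8, 39.7 and 29.5 CPM in WT and 40.1, 42.4, 38.8 and 38.7 CPM in Mvp KO. The groups overlapped through WT replicate 3, which lay above KO replicates 3 and 4. Means were 34.0 ± 4.39 CPM in WT and 40.003 ± 1.71 CPM in Mvp KO (SD, n = 4 each), with a log2 fold change of 0.24 (SE 0.0949, unadjusted p = 0.0333, edgeR adjusted p = 0.969). The estimate stayed positive when each sample was left out in turn, between 0.18 without WT replicate 4 and 0.32 without WT replicate 3, and the unadjusted p was under 0.05 in 4 of these 8 fits, not in those without WT replicate 1, WT replicate 4 (unadjusted p 0.0540, edgeR adjusted p 0.9999), Mvp KO replicate 1 or Mvp KO replicate 2. A single member under an unadjusted 0.05 among 54 is a share close to the 1.56% of all genes.

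*Ephb6* had 171, 171, 179 and 252 CPM in WT and 167, 185, 187 and 202 CPM in Mvp KO (log2 fold change -0.06, SE 0.131), with WT replicate 4 highest and KO replicate 4 next. Of the 10 receptors, 3 had estimates above and 7 below 0, from -0.28 for *Epha6* to 0.24 for *Ephb1*. *Epha6*, at 9.77 ± 1.73 CPM in WT and 8.05 ± 0.757 CPM in Mvp KO, came next by p (0.0787), and its estimate was -0.14 (SE 0.106) without WT replicate 4. *Epha4*, the most abundant by CPM with 268 ± 22.6 in WT and 256 ± 26.3 in Mvp KO (SD, n = 4 each), had an interval from -0.28 to 0.15 on the log2 scale. The 95% interval lay inside 1.5-fold for 9 of the 10 Eph receptors and inside 2-fold for all 10.

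Slits are large secreted repellents. *Slit2* had 53.3, 53.4, 47.0 and 67.9 CPM in WT and 42.98, 47.2, 49.1 and 49.0 CPM in Mvp KO (log2 fold change -0.23, SE 0.110, unadjusted p = 0.0597, edgeR adjusted p = 0.969). WT replicate 3 lay inside the KO range and the other WT samples above it. Without WT replicate 4 the log2 fold change was -0.12 (SE 0.0734). *Slit1* had 79.6, 48.4, 74.1 and 92.5 CPM in WT and 58.0, 64.1, 83.6 and 93.3 CPM in Mvp KO, with nearly equal means (log2 fold change 0.02, SE 0.209). The interval of all 3 Slits lay inside 1.5-fold.

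*Robo2*, the Slit receptor with the highest level, had 112, 121, 123 and 156 CPM in WT and 101, 120, 132 and 121 CPM in Mvp KO (log2 fold change -0.11, SE 0.119). *Robo3*, which commissural axons need to cross the midline, varied most of the Robo receptors, with 11.3, 30.1, 18.4 and 23.9 CPM in WT and 14.8, 40.9, 15.5 and 17.0 CPM in Mvp KO. Replicate 2 was the highest sample in both genotypes, and the KO sample was 2.40 times the median of the others. The log2 fold change of *Robo3* was 0.07 with an interval from -0.80 to 0.94, which is wider than 1.5-fold in either direction. Without Mvp KO replicate 2 the estimate was -0.42.

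*Ntn1* encodes netrin-1, the classical secreted attractant. Its counts gave 7.31, 9.72, 8.41 and 49.6 CPM in WT and 10.4, 8.74, 7.71 and 6.91 CPM in Mvp KO. The value in WT replicate 4 was 5.83 times the median of the other samples, and those 7 samples lay between 6.91 and 10.4 CPM. The log2 fold change of *Ntn1* was -1.15 (SE 0.593, unadjusted p = 0.0848, edgeR adjusted p = 0.969) with all samples and -0.0033 (SE 0.156) without WT replicate 4. *Ntng2*, a GPI-anchored netrin-G that binds NGL-2 and not DCC, showed the same sample apart, with 12.4, 12.6, 10.6 and 28.7 CPM in WT and 11.4, 11.5, 12.4 and 15.9 CPM in Mvp KO. Its estimate moved from -0.33 (SE 0.301) to 0.11 (SE 0.132) without that sample, and 14.0% of its exonic bases are shared with another gene on the same strand. The other netrins did not follow: *Ntng1* had 13.7 CPM and *Ntn4*, a basement membrane netrin, had 5.21 CPM in WT replicate 4, each at or near the lowest of the 8 samples.

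Of the netrin receptors, *Unc5a* had 60.5, 55.0, 55.1 and 64.7 CPM in WT and 50.3, 43.6, 62.1 and 70.5 CPM in Mvp KO, the KO samples spreading on both sides of the WT range (log2 fold change -0.06, SE 0.141). *Unc5d* had the smallest p of its group, with 36.3, 34.6, 30.8 and 29.9 CPM in WT and 30.4, 27.96, 33.5 and 31.0 CPM in Mvp KO (log2 fold change -0.10, SE 0.0886, unadjusted p = 0.291, edgeR adjusted p = 0.969). *Dcc* had between 26 and 55 counts per sample, or 1.08 ± 0.159 CPM in WT and 1.124 ± 0.161 CPM in Mvp KO (SD, n = 4 each). *Neo1* encodes neogenin, a DCC relative that binds the repulsive guidance molecule RGMa. It had 136, 116, 127 and 122 CPM in WT and 124, 132, 135 and 130 CPM in Mvp KO, with a narrow interval of the log2 fold change from -0.09 to 0.21. *Rgma* was at 12.6 ± 1.20 CPM in WT and 12.2 ± 0.722 CPM in Mvp KO.

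**Figure D3:**
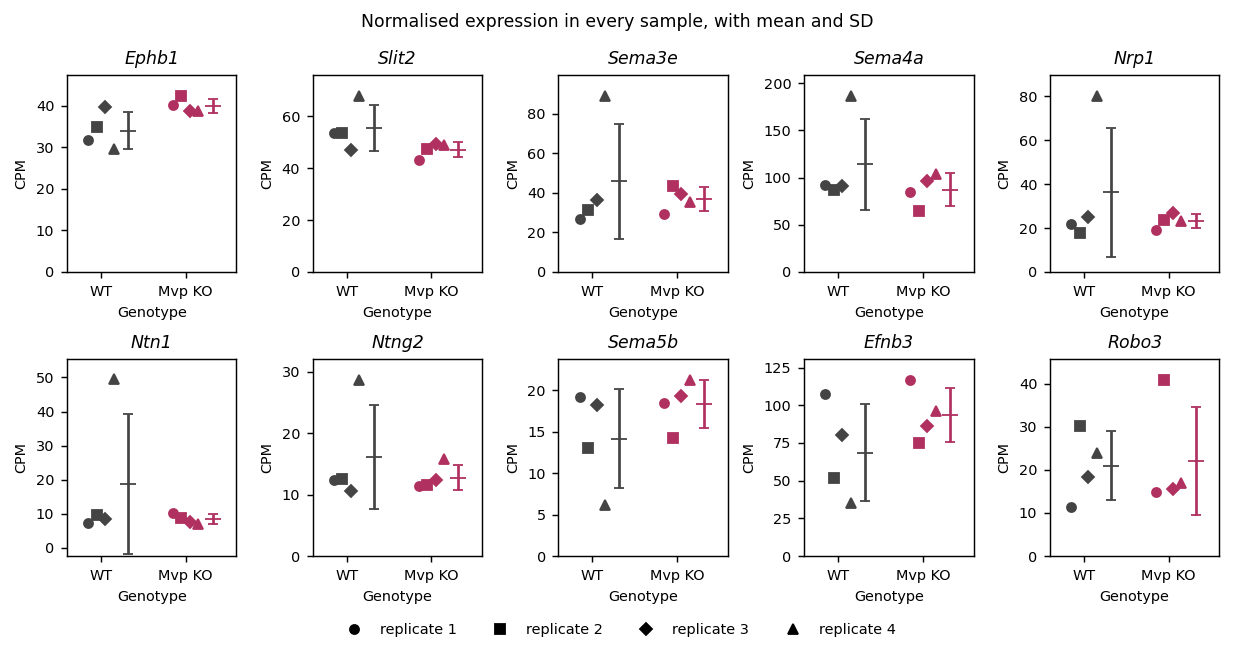
CPM (vertical axis) of 10 genes in each WT and Mvp KO sample (horizontal axis), with the replicate number as marker and the mean and SD beside the points. WT replicate 4 is the highest WT sample for *Slit2*, *Sema3e*, *Sema4a*, *Nrp1*, *Ntn1* and *Ntng2* and the lowest for *Ephb1*, *Sema5b* and *Efnb3*.

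The 7 members 2-fold or further apart in WT replicate 4 were *Ntn1* (5.83-fold of the median of the others), *Nrp1* (3.41-fold), *Sema3e* (2.51-fold), *Ntng2* (2.31-fold), *Sema4a* (2.05-fold), *Efnb3* (0.408-fold) and *Sema5b* (0.339-fold). All but *Nrp1*, 6 genes, belong to the 24 genes of the ligand families. Of all genes, 3.82% were 2-fold or more above and 4.68% 2-fold or more below in this library, against 5 and 2 of the 54 members. *Sema3a* and *Sema3c* stood at 1.91-fold and 1.83-fold, just inside the limit. In the same library, 12 of 12 genes of the neuronal activity response were at their highest, with a sum of 3985 CPM, where WT replicates 1 to 3 had 712 to 1340 CPM and Mvp KO had 939 to 1603 CPM. The interneuron markers summed to 1780 CPM there, against 842 to 1031 CPM elsewhere, with 4 of the 7 (*Gad1*, *Gad2*, *Slc32a1* and *Sst*) at their highest and *Vip* at its lowest. The markers of striatal projection neurons summed to 223 CPM there, against 147 to 157 CPM elsewhere, with 4 of 8 at their highest. The oligodendrocyte markers had their lowest sum there, 870.04 CPM. The leptomeningeal markers also had their lowest sum there, 18.2 CPM against 28.3 to 90.2 CPM elsewhere. The part of these in the values of the members was not tested.

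**Figure D4:**
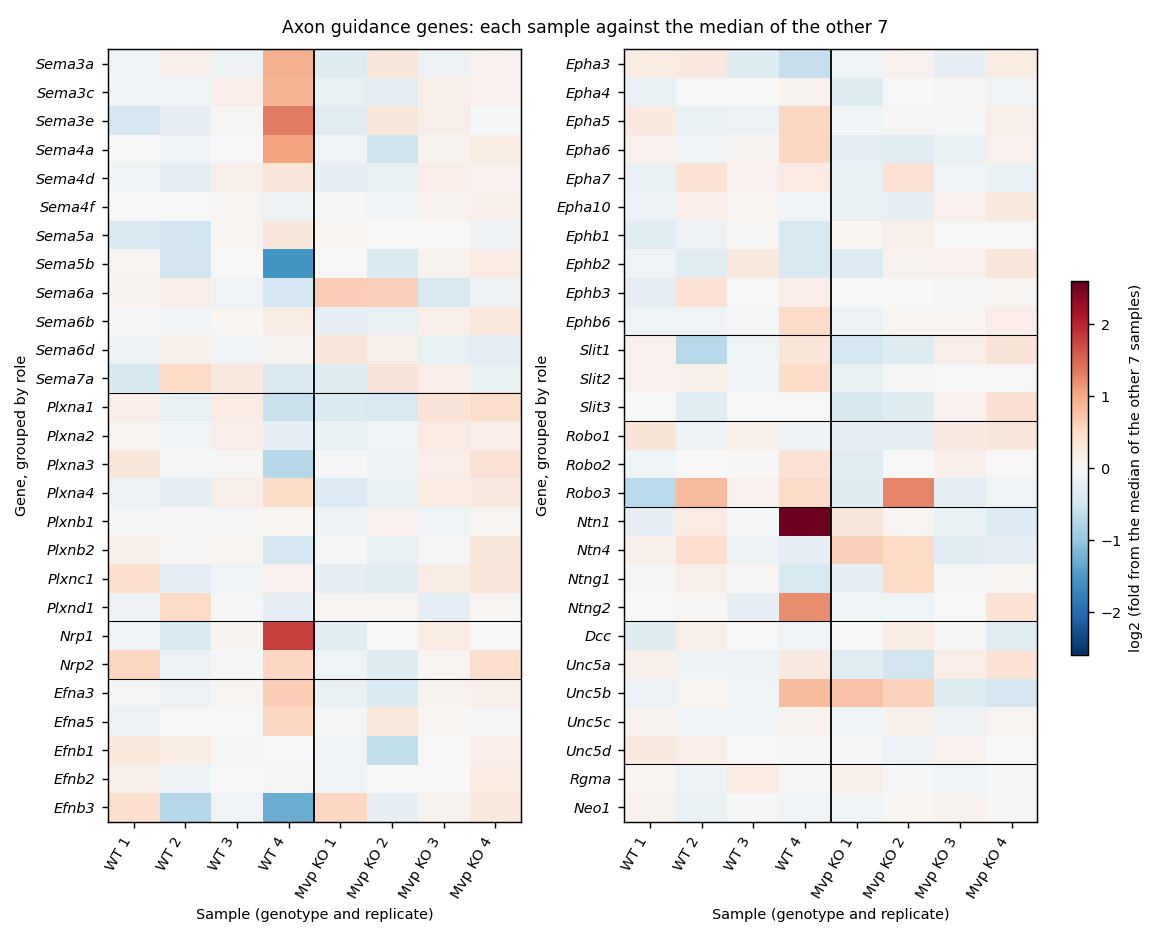
Log2 of the fold between each sample (columns) and the median of the other 7 samples, for the 54 genes (rows, by role, with lines between groups on each side). WT replicate 4 holds the strongest colours, above all *Ntn1*, *Nrp1* and *Sema3e* (higher) and *Sema5b* and *Efnb3* (lower), and Mvp KO replicate 2 stands out for *Robo3*.

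The bases just before the start sites of *Nrp1*, *Sema3e* and *Ntng2*, which were all far higher in WT replicate 4, were compared for shared letters, beside those of *Ephb1*, the member with the smallest p. RefSeq promoter windows of GRCm38.p6 matched 45 of the 54 members, not *Ntn1* or *Efnb3*, and the 250 bases before each start were read. *Sema4a*, also higher in that library (2.05-fold), had more than 1 window, and its sequences are not printed. For each gene with 1 window the sequence runs 5′ to 3′ on the gene's strand, and capitals mark a GC box (GGGCGG on either strand), the letters bound by Sp1 family factors. By the GENCODE annotation *Ntng2* begins further upstream, at 29253005 on chromosome 2, and *Nrp1* at 128358604 on chromosome 8, so both windows lie inside the annotated gene.
*Nrp1* (chr8:128358823-128359072, plus strand): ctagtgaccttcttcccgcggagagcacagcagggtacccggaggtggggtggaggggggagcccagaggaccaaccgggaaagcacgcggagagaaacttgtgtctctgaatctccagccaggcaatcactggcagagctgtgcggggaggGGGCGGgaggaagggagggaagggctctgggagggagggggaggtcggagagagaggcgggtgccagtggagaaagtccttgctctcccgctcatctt
*Sema3e* (chr5:14025026-14025275, plus strand): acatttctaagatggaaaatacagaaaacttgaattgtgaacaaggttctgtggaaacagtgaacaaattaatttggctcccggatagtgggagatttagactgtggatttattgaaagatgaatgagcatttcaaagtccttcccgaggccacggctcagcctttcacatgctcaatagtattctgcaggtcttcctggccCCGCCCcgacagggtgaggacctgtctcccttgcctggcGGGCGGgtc
*Ntng2* (chr2:29248100-29248349, minus strand): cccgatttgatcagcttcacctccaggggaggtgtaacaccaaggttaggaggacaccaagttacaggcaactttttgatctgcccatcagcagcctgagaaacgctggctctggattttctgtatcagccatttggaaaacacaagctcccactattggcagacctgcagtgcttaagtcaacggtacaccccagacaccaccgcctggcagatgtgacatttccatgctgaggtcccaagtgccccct
*Ephb1* (chr9:102354694-102354943, minus strand): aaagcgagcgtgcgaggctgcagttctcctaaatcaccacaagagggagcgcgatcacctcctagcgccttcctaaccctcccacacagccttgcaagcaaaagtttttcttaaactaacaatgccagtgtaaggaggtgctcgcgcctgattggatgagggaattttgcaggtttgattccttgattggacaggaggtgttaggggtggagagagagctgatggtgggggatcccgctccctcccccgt

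*Sema3e* had 2 GC boxes, *Nrp1* had 1, and the windows of *Ntng2* and *Ephb1* had 0. The windows of *Sema4a* had from 0 to 2 each. Among all 57 windows of the members, 40 (70.2%) held a GC box, against 55.4% of the 14574 windows of protein-coding genes tested here and 32.7% of all 32851 windows. The cyclic AMP response element TGACGTCA, bound by CREB, was in 0 of the 57, against 2.44% of the windows of protein-coding genes tested and 1.55% of all. Its shorter form TGACG, which is part of the full element, was in 5 (8.77%), against 24.8% and 17.8%. The AP-1 letters TGAGTCA were in 1 (1.75%), against 3.20% and 4.46%. The EGR1 letters GCGTGGGCG went the other way, in 2 windows (3.51%) against 0.967% and 0.536%, and the TATA letters TATAAA were in 2 (3.51%), against 6.70% and 12.4%. These shares describe letters in windows of one length, some of which belong to the same gene.

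Without WT replicate 4 the 54 genes stayed without a call. By edgeR's test, 0 had an adjusted p under 0.05 (lowest value 0.9999, with 0.00583% of all genes called) and 0 an unadjusted p under 0.05, against 1.34% of all genes, and in 0 did the genotypes fail to overlap, against 2.82%. The estimates then lay above 0 in 30 members and below 0 in 24, with a median log2 fold change of 0.0077. The 95% interval lay inside 1.5-fold for 47 of the 54 members (71.4% of all genes), where it had been 37 with all samples (64.5% of all genes). The median SE of the members' log2 fold change fell from 0.147 to 0.121.

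The precision differed between families in the fit to all samples. With all samples, the interval lay inside 2-fold for 48 of the 54 members (86.7% of all genes). The 6 exceptions were *Sema3e*, *Sema5b*, *Nrp1*, *Efnb3*, *Ntn1* and *Ntng2*, each of which had a sample apart. With all samples, 22 of 28 receptor genes lay inside 1.5-fold against 13 of 24 ligand genes, a difference that was not tested. WT replicate 4 was 2-fold or further apart in 1 of these receptor genes and 6 of these ligand genes. Without it, the intervals past 1.5-fold were those of the ligands *Sema6a*, *Efnb1*, *Efnb3* and *Slit1* and the receptors *Nrp2*, *Robo3* and *Unc5b*. That library was left out after it had been seen to lie apart, so narrower intervals follow from its choice and do not tell why the families differed. The narrowest intervals belonged to *Plxnb1*, *Neo1*, *Unc5c* and *Sema4f*, with SEs of 0.0669, 0.0686, 0.0716 and 0.0720.

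The same description holds for 83 other genes of the pathway, of which 82 were in the table and 79 had enough counts to be tested. Among the 20 tested of 24 other ligands and receptors of these families, 0 had an adjusted or unadjusted p under 0.05, and the same was true of 16 co-receptors and surface partners and of 43 intracellular mediators. Of all genes tested with edgeR, 0.00591% had an adjusted and 1.56% an unadjusted p under 0.05, so 0 of 79 lies near these shares. The estimates of the 79 genes lay above 0 in 36 and below 0 in 43, with a median log2 fold change of -0.01. In 1 of the 79, *Rhoa*, the GTPase through which several repellents collapse the growth cone, did the genotypes not overlap (1.52% of all genes). *Rhoa*, named after its values had been seen, had 52.1, 49.2, 49.6 and 52.1 CPM in WT and 47.4, 47.3, 46.6 and 46.6 CPM in Mvp KO (log2 fold change -0.11, SE 0.0560, unadjusted p = 0.0774, edgeR adjusted p = 0.969).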

How the data were processed

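The authors trimmed single-end reads with cutadapt 1.10, removed ribosomal and spike-in reads with Bowtie2 2.2.8, mapped the rest to mm10 with STAR 2.5.3a and counted reads per gene of Ensembl release 91 with HTSeq 0.6.1p1; they deposited raw counts without normalization. Stranded libraries were used, but the counting mode and strand setting are not given in the sources used here, so shared or opposite exons can move a count. Symbols and exon lengths came from GENCODE vM21 (GRCm38), and 1 pathway symbol, *Hjv*, was matched through its RefSeq synonym. The fits used edgeR 4.0.16 under R 4.3.3 (filterByExpr, minimum count 10; TMM; robust quasi-likelihood, genotype as the single term; Benjamini-Hochberg over all genes). An SE is the absolute log2 fold change over the square root of F. Alternatives were DESeq2 1.42.0 (size factors; Wald test), limma 3.58.1 voom, other filters, non-robust dispersions, a replicate block and leaving out each sample. The fits were tested on simulated data. Distances between samples used log2(CPM + 0.1).

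The members and lists were chosen with earlier results of these data known, and 1 marker gene is not reported here. All members are named by role. Values in every sample are given for members with an unadjusted p under 0.05, genotypes that do not overlap, the smallest p or the highest level per length of their role group, or a sample 2-fold or further from the median of the remaining 7. Intervals are at 95%. Depth, 28456504 to 42854368 counts per sample, makes counting error small for most of these genes, though not for *Dcc*.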

Additional observations from a re-analysis of the deposited data

Results flagged for a closer look

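In 110 groups of 4 samples (each of the 54 genes and *Mvp* in each genotype), the distance from the end sample to the next one was divided by the range of the group. This ratio passed Dixon's 95% critical value in 16 groups, where chance gives about 5.5. Of these, 11 were genes whose highest WT sample was replicate 4. The 110 groups come from the same 8 samples and are not independent, and the 5.5 assumes normally spread values. No share over all genes is given for this ratio. In WT replicate 4, 8.5% of all genes and 7 of the 54 members lay 2-fold or further from the median of the other 7 samples. That distance is another measure than the ratio, so whether the flags there are particular to the members was not tested.

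Among the semaphorins in WT replicate 4, *Sema3a* at 43.4 CPM (others 22.2 to 24.8, ratio 0.877), *Sema3c* at 77.4 CPM (others 41.9 to 47.7, ratio 0.837), *Sema3e* at 89 CPM (others 26.9 to 36.3, ratio 0.849) and *Sema4a* at 187 CPM (others 86.5 to 91.8, ratio 0.948) stood above the other WT samples. The same held for the ligands *Efna3* at 79.95 CPM (others 48.1 to 53.3, ratio 0.838), *Ntn1* at 49.6 CPM (others 7.31 to 9.72, ratio 0.943) and *Ntng2* at 28.7 CPM (others 10.6 to 12.6, ratio 0.894). It also held for the receptors *Nrp1* at 80.3 CPM (others 17.9 to 24.9, ratio 0.888), *Epha6* at 12.3 CPM (others 8.5 to 9.14, ratio 0.831), *Ephb6* at 252 CPM (others 171 to 179, ratio 0.9) and *Unc5b* at 27.4 CPM (others 14.7 to 16.3, ratio 0.873).

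In Mvp KO replicate 3, *Plxnd1* was lowest at 36.03 CPM, where the rest of its genotype had 42.5 to 43.5 CPM (ratio 0.87). In Mvp KO replicate 2, *Epha7* was highest at 108 CPM, where the rest of its genotype had 79.5 to 83.5 CPM (ratio 0.862). In WT replicate 2, *Slit3* was lowest at 19.9 CPM, where the rest of its genotype had 23.9 to 24.2 CPM (ratio 0.924). In Mvp KO replicate 2, *Robo3* was highest at 40.9 CPM, where the rest of its genotype had 14.8 to 16.99 CPM (ratio 0.915). In Mvp KO replicate 3, *Mvp* was highest at 2.13 CPM, where the rest of its genotype had 1.44 to 1.51 CPM (ratio 0.903).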

How the results depend on the processing

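Over 30 results, the alternatives gave 431 values, of which 369 stayed on the side reported or close to it, 31 moved, 7 became weaker and 24 reversed. A single gene counted as staying when its sign and its side of the adjusted threshold held, whatever the size of its change. *Ntn1*, with a log2 fold change of -1.15 with all samples and -0.0033 without WT replicate 4, counted as staying. The cause was not tested unless stated.

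No alternative gave a member an adjusted p under 0.05. Members under an unadjusted 0.05 numbered 0 with limma voom, 2 with no filter and 2 with the replicate block (*Ephb1* and *Efnb3*), and from 0 to 3 over 8 fits with a sample removed, with 0 without WT replicate 4, Mvp KO replicate 1 or Mvp KO replicate 2 and 3 without WT replicate 3 (*Ntn1*, *Slit2* and *Ephb1*). Members whose genotypes do not overlap numbered 0 to 2 over these fits, with 2 without WT replicate 3. Of all genes, 1.52% showed no overlap with all samples and 2.82% without WT replicate 4. By edgeR's test, 1.56% of all genes had an unadjusted p under 0.05 with all samples and 1.34% without WT replicate 4. Shares of all genes are not given for the other alternatives, so the counts there cannot be set against a background. Other pathway genes under an unadjusted 0.05 numbered 1 with DESeq2's Wald test, 1 with limma voom, 2 with no filter, 2 with the replicate block and 0 to 2 over the fits that left out a sample. DESeq2 gave no p for *Ntn1*. Genes called among all genes numbered 2 with DESeq2's Wald test, 0 with the block and 0 to 1 over the fits that left out a sample; *Mvp* ran from -2.22 to -1.99 over those, past the threshold in 2 of 8 (edgeR adjusted p 0.00446 to 0.147). With the replicate block *Mvp* was at -2.07 (adjusted p 0.0850). The labels link same-numbered samples by the number alone. Deviations of same-numbered samples correlated at 0.0548, 0.293, -0.00415 and 0.0531 for replicates 1 to 4. Without values for other pairs, these cannot tell whether the samples were paired.

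Signs turned with limma voom for *Sema3e* (0.15), *Nrp1* (0.082), *Ephb6* (0.085), *Robo2* (0.026), *Robo3* (-0.073), *Ntng2* (0.13) and *Unc5a* (0.073), and with the block for *Sema7a* (0.0095). Over the fits that left out a sample, log2 fold changes ran from -0.12 to 0.096 for *Ephb6*, -0.88 to 0.11 for *Nrp1*, -0.49 to 0.11 for *Ntng2*, -0.0100 to 0.22 for *Plxna1*, -0.18 to 0.0017 for *Robo2*, -0.42 to 0.30 for *Robo3*, -0.51 to 0.23 for *Sema3e*, -0.11 to 0.14 for *Sema7a*, -0.14 to 0.15 for *Slit1* and -0.18 to 0.047 for *Unc5a*. The highest member per length was the same in 5 of 10 role groups with the median transcript length and in 9 with the longest coding transcript, which was added after seeing the data. Depth limits *Dcc* most, with 319 counts over all samples.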

Other observations

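*Sema6a*, a transmembrane semaphorin, *Unc5b*, a netrin receptor, and *Ntn4* shared a pattern across samples and were picked out after their values had been seen. *Sema6a* had 26.0 and 25.4 CPM in Mvp KO replicates 1 and 2, against 12.8 to 18.7 CPM in the other 6 samples. *Unc5b* had 26.2 and 23.6 CPM in the same KO samples and 27.4 CPM in WT replicate 4, against 12.04 to 16.3 CPM in the other 5. *Ntn4* had 8.71 and 8.16 CPM there, against 5.08 to 7.65 CPM in the rest. In Mvp KO replicates 1 and 2 the 7 oligodendrocyte markers, *Mbp* among them, summed to 3823 and 2599.9 CPM, against 870.04 to 1922 CPM in WT and 1042 and 1325 CPM in the other KO samples. All 7 were highest in one of these KO samples, and none was at 0 in any sample. Their part in the levels of *Sema6a*, *Unc5b* and *Ntn4* was not tested.

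Summed over each role group in CPM per kb, the semaphorins gave 129 ± 14.2 in WT and 122 ± 7.46 in Mvp KO (SD, n = 4 each), and the Eph receptors gave 126 ± 14.4 and 121 ± 8.30. The plexins summed to 72.3 ± 5.49 in WT and 73.8 ± 9.12 in Mvp KO, and the ephrins to 69.5 ± 8.39 and 73.4 ± 7.05. Netrins and netrin-Gs summed to 18.1 in WT replicate 4, against 7.71 to 9.55 in the other 7 samples.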
